A study of Mus musculus with 16 samples.

Results

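The proteasome subunit genes of mouse skeletal muscle were described here across genotype and training. They were chosen by gene symbol alone: every row whose symbol begins with Psma, Psmb, Psmc, Psmd, Psme, Psmf or Psmg followed by a digit was taken, and pseudogene rows with "-ps" in the symbol (5 rows) were left out. This gave 50 of the 55487 rows of the gene table, of which 48 passed the filter on low counts, among 17490 genes tested. Psma8, the α subunit of the testis, and Psmb11, the β subunit of the thymic cortex, had 0 to 3 counts and 0 to 1 counts per library and were not tested. Psmc3ip was caught by the symbol rule but encodes a partner of the meiotic recombinases and no proteasome subunit. Its mean CPM lay between 0.598 and 0.703 in the 4 groups. It overlaps exons of Mlx on the other strand.

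RNA of skeletal muscle was sequenced from wild-type mice (WT) and from mice carrying a CHCHD4 transgene (CHCHD4 Tg), each either without training or after treadmill training. The groups were WT untrained, WT trained, CHCHD4 Tg untrained and CHCHD4 Tg trained, with 4 libraries each, 16 in all. CHCHD4 is the import receptor of the mitochondrial intermembrane space that oxidises incoming proteins. The sources used here name no single muscle, strain, age, sex, transgene promoter or length of training. Nothing in them ties a library to an animal of its own, so the p-values measure only the spread between libraries, which may be technical. Bulk RNA was measured, in which fewer cells of a type and less RNA per cell cannot be told apart.

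The proteasome degrades proteins that carry ubiquitin chains. Its barrel, the 20S core, is built of outer rings of α subunits, which gate the entrance, and inner rings of β subunits, of which Psmb5, Psmb6 and Psmb7 cut proteins. The 19S cap consists of a base, with a ring of ATPases that unfold the substrate, and a lid, which removes ubiquitin chains. Ubiquitin receptors sit among the base subunits. In immune cells and under interferon, Psmb8, Psmb9 and Psmb10 take the places of Psmb5, Psmb6 and Psmb7 and form the immunoproteasome, which is known for making peptides for antigen presentation. Alternative caps (PA28, PA200), an inhibitor (PI31) and assembly chaperones complete the family. In skeletal muscle the ubiquitin-proteasome system is known as the main route by which contractile proteins are broken down.

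Promoters are shown because many members moved together across libraries. Psmd8 and Psmd2 are given as the cap subunits with the largest such swings, and Psmb5 and Psmb6 as constitutive catalytic subunits. The 250 bases upstream of the RefSeq start are given 5′ to 3′ on the gene's strand in build GRCm38.p6. Capitals mark a match to TGACNNNGC, the core of the antioxidant-type element that NRF1 and NRF2 are known to bind in proteasome promoters.
Psmd8 chr7:29180674-29180923 (−): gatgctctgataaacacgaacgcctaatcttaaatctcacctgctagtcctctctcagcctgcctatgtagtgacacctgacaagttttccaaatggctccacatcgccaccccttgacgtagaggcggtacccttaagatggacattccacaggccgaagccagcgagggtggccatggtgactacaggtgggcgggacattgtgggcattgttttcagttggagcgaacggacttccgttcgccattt
Psmd2 chr16:20651402-20651651 (+): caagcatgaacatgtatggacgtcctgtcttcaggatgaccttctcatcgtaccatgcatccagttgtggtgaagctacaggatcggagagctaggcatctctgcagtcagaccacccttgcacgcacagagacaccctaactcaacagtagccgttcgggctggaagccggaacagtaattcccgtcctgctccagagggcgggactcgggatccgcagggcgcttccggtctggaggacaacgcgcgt
Psmb5 chr14:54617996-54618245 (−): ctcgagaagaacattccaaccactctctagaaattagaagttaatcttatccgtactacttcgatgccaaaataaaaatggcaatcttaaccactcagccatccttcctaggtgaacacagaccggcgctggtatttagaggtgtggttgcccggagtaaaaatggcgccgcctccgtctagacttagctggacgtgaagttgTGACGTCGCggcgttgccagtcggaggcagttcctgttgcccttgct
Psmb6 chr11:70525107-70525356 (+): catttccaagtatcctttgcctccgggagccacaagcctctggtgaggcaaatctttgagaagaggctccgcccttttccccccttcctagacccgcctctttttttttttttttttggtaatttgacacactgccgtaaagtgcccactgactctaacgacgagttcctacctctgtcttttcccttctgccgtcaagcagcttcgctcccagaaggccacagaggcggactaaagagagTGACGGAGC
The matches were TGACGTCGC in Psmb5 and TGACGGAGC in Psmb6, and the printed bases of Psmd8 and Psmd2 held none. Windows from 250 bases before to 50 bases after the start were searched on both strands in 42 members with a window and in 32851 windows of all genes. TGACNNNGC was found in 6 members (14.3%; Psmb5, Psmb6, Psmc6, Psmd9, Psmd12, Psme4) and in 12.4% of all windows. CCAAT, the NF-Y box, was found in 15 members (35.7%) and 37.4% of all windows. The STAT-type palindrome TTCNNNGAA was found in 3 members (7.14%; Psmb8, Psmd2, Psmg1) and 8.3% of all windows, with the letters TTCCCAGAA in Psmb8. The interferon-stimulated response element, taken as GAAA and GAAA with any 2 bases between them, was found in 5 members (11.9%; Psmb3, Psmd4, Psmd9, Psme1, Psmg4) and 3.44% of all windows. A match describes letters in the window and no binding. No window was matched for Psma8, Psmb1, Psmb2, Psmb7, Psmc3, Psmd3, Psmd7 and Psmg2.

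Library totals ran from 40888272 to 61703679 counts, and values are CPM, the counts of a gene scaled to a common library total after correction by trimmed mean of M-values (TMM). Chchd4 stood at 6.88 to 8.98 CPM in the WT libraries and at 18.1 to 22.2 CPM in the CHCHD4 Tg libraries, with no overlap (log2 difference 1.36 untrained and 1.42 trained, edgeR adjusted p = 1.55e-07 and 1.64e-07). The library labelled WT untrained replicate 2 stood apart from the others. Its 8 muscle fibre markers summed to 43800 CPM, against 56800 to 74000 CPM elsewhere, while its macrophage markers summed to 94.1 CPM, within the range of the other 15 libraries. In the other 3 WT untrained libraries the macrophage sums were 55.8 to 70.6 CPM. Against these 3, all 12 macrophage markers were higher (median log2 difference 0.577), and so were all 4 adipocyte markers (0.905). Of its 6 endothelial markers, 4 were below all other libraries. Albumin (Alb) stood at 14.9 CPM and the slow myosin Myh7 at 11.2 CPM in it, which did not set it apart from all other libraries. Within its own group it was apart in liver markers. Alb and the other liver markers, 4 in all, summed to 18.9 CPM in it and to 0.1199 to 0.1415 CPM in the other 3. In all, 3 libraries were above 10 CPM of Alb and 4 above 10 CPM of Myh7, this library among both. Counts of members below are also given without that library, and so are single-gene differences that it moved by over 1.5 times. The part of the marker differences in the results was not tested.

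In WT untrained replicate 2, 31 of the 48 tested members (19.6% of all genes) were above all other 15 libraries, and 2 (20% of all genes) were below them. The proteasome share of all counts was 0.296% in it, against 0.153% to 0.172% elsewhere, and the members summed to 2309 CPM against 1527 to 1802 CPM. Among the members, all 7 α subunits, all 4 structural β subunits, all 6 ATPases, all 3 base non-ATPases and all 8 lid subunits were highest there. Of the other members, Psmb7, Psme4 and Psmd10, the base chaperone gankyrin, were highest there as well. The 2 members below all others were Psme1 (7.43 CPM against 10.2 to 14.02 CPM) and Psmb10 (2.10 CPM against 2.86 to 4.30 CPM). The median log2 difference from the other 3 WT untrained libraries was 0.299 over the members and 0.0048 over all genes. It was 0.702 for the base non-ATPases, 0.467 for the lid, 0.466 for the α ring, 0.438 for the ATPases and 0.402 for the structural β subunits. It was smaller for the constitutive catalytic subunits (0.115), the activators (0.030) and the immunosubunits (-0.061). The largest single differences were Psmd2 (0.835), Psmd8 (0.732) and Psma5 (0.730). With scaling by library totals only, 40 members were above all other libraries (50.2% of all genes). Of the 14 tested members with CCAAT in the window, 11 were above all others in this library. The same held for 3 of 6 with TGACNNNGC, 1 of 3 with TTCNNNGAA and 2 of 5 with the interferon-stimulated response element. With or without a window, 31 of the 48 tested members were. The share over all genes with each motif was not computed, and a link between a motif and this library was not tested.

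**Figure D1:**
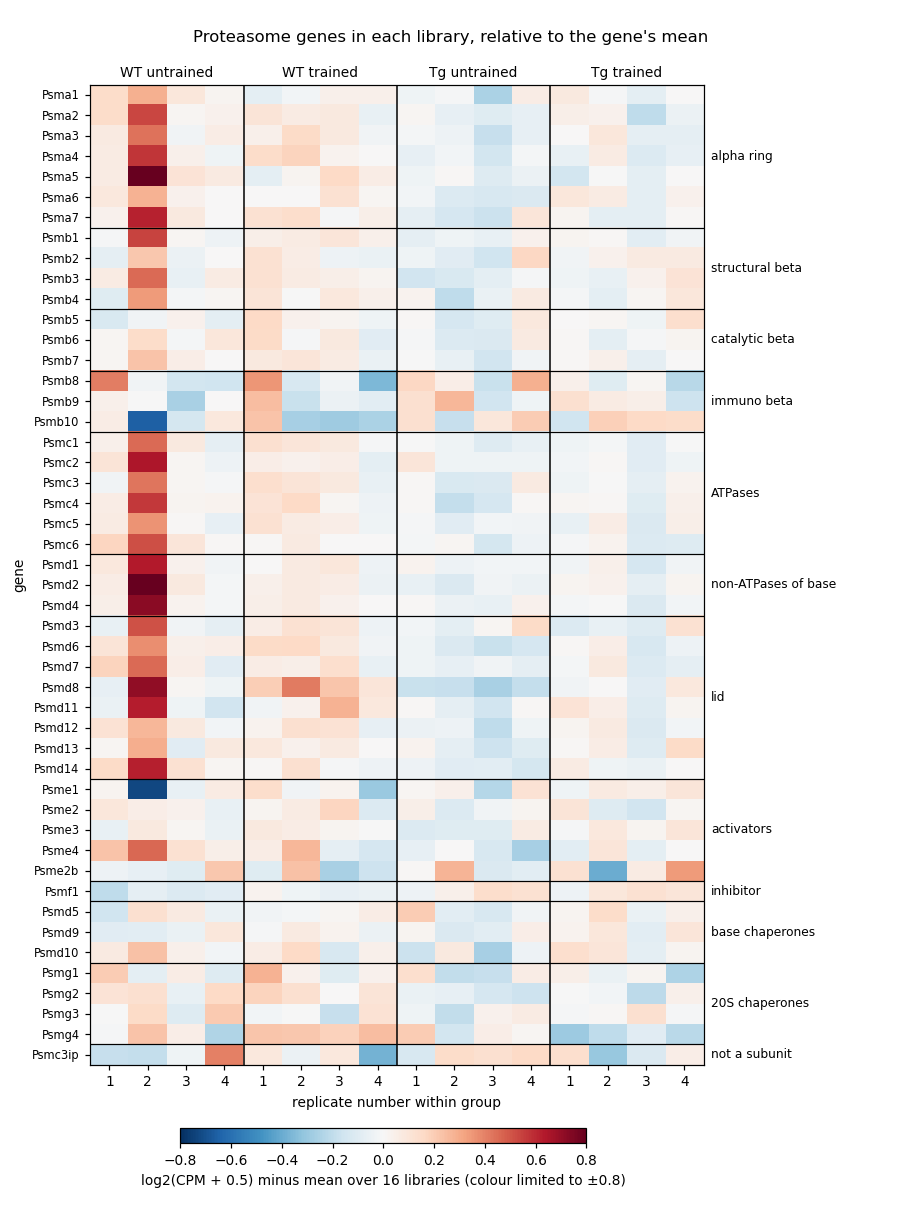
Each tile is the log2(CPM + 0.5) of 1 tested member in 1 library minus its mean over the 15 libraries other than WT untrained replicate 2. The label of the colour bar names 16 libraries instead. The 48 members are in rows by role and the libraries in columns by group. The column of WT untrained replicate 2 is high from the α ring to the lid, where 31 members exceed all other libraries, and low for Psme1 and Psmb10.

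The members differed widely in level. Levels between genes are given as CPM per kilobase of exon, averaged over the 16 libraries. The 14 constitutive 20S subunits ran from 8.76 (Psma2) to 31.0 (Psmb5), with a median of 15.01. The 17 members of the 19S cap ran from 4.89 (Psmd11) to 31.6 (Psmd2), with a median of 15.1. Psme4, which encodes the PA200 cap, stood at 31.4, beside the most abundant core subunits. The PA28 subunits were lower: Psme3 (PA28γ) at 6.96, Psme1 (PA28α) at 5.60 and Psme2 (PA28β) at 3.51. Psmf1, which encodes the inhibitor PI31, stood at 1.09, the base chaperones at 1.02 to 1.72 and the 20S chaperones at 0.658 to 3.26. Among the immunosubunits Psmb10 stood at 2.07, Psmb8 at 0.696 and Psmb9 at 0.221. The choice of gene length moved the order: with the longest transcript the highest 20S subunit was Psmb6 at 51.7, against 26.7 with all exons, while Psmb5 kept 31.0.

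**Figure D2:**
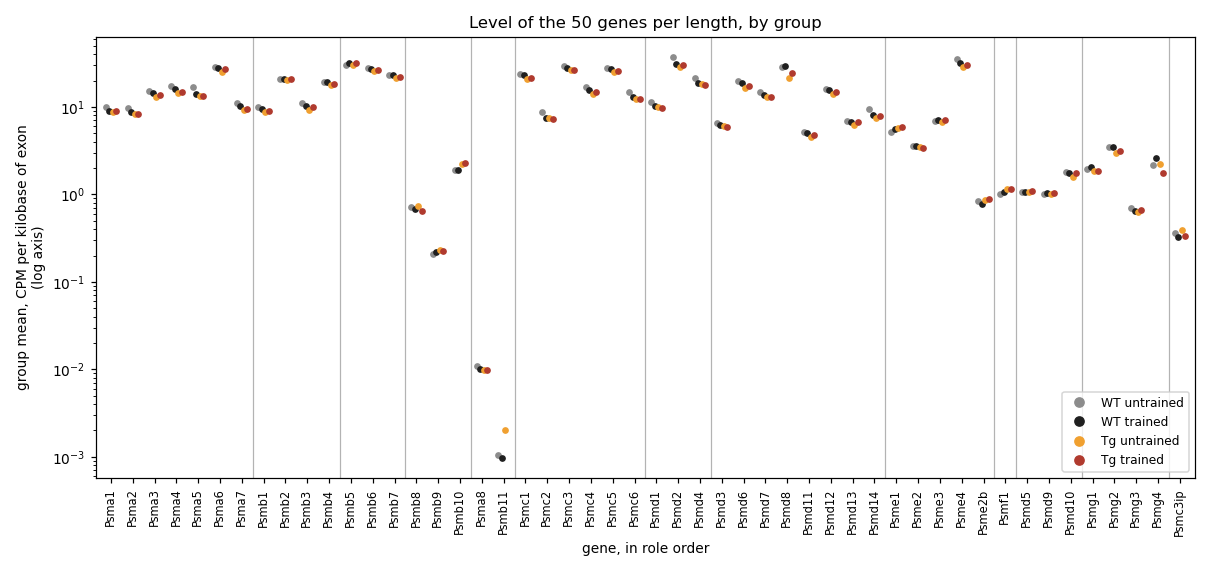
Points are group means of CPM per kilobase of exon (log axis) for the 50 members, along the horizontal axis by role, with 1 marker per group. Psmb11 in the CHCHD4 Tg trained group is at 0 and has no marker. Averaged over the 16 libraries, the 20S and 19S subunits lie between 4.89 and 31.6 and the immunosubunits between 0.221 and 2.07.

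No member passed an adjusted p of 0.05 in any of the 7 comparisons with edgeR's quasi-likelihood test on all 16 libraries. The share of all tested genes that passed was 0.743% for CHCHD4 Tg against WT without training, 0.0114% for the same after training and 1.12% for genotype averaged over training. It was 0.143% for training in WT, 0% for training in CHCHD4 Tg, 0.457% for training averaged over genotype and 0.0515% for the interaction. At an unadjusted p under 0.05 stood 21 of 48 members for genotype without training (16.2% of all genes), 2 after training (7.98%) and 20 averaged (17.2%). For training the counts were 2 in WT (9.55%), 1 in CHCHD4 Tg (11.1%) and 0 averaged (14.4%), and for the interaction 3 (6.03%). Without WT untrained replicate 2, 12 were lower and 1 higher for genotype without training (15.3% of all genes in either direction), 7 and 0 after training (11.5%) and 17 and 1 averaged (17.8%). For training 0 were then lower and 3 higher in WT (9.08%), 1 and 3 in CHCHD4 Tg (15.9%), 0 and 3 averaged (15.6%), and 1 and 1 for the interaction (9.06%). limma-voom called 0 members in each comparison. DESeq2 called 1 for genotype without training (Psmd6, adjusted p = 0.0359; 2.53% of all genes) and 2 for genotype averaged (Psmd6, adjusted p = 0.0226, and Psmd8, adjusted p = 0.0389; 3.68% of all genes), and 0 elsewhere.

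Without training, most members had lower values in CHCHD4 Tg than in WT muscle, though none passed the adjusted test. The log2 difference was negative in 38 of 48 members, with a median of -0.18 against 0.00 over all genes. Of these, 20 members (41.7%) were lower at an unadjusted p under 0.05, a class that held 7.98% of all genes, and 1 (2.08%), Psmf1, was higher, against 8.17%. All 4 CHCHD4 Tg libraries lay below all 4 WT libraries in 10 members (20.8%), against 4.16% of all genes: Psma5, Psma6, Psmb7, Psmc4, Psmd2, Psmd6, Psmd8, Psmd12, Psmd14 and Psme4. Psmf1 was the member with all CHCHD4 Tg libraries above, against 4.33% of all genes. Without WT untrained replicate 2 the direction stayed and the size shrank: 38 of 48 members were negative with a median of -0.07, and 12 were lower at an unadjusted p under 0.05 (25%, against 7.66% of all genes). The median was -0.03 without the 4 libraries above 10 CPM of Myh7 and -0.06 without the 3 above 10 CPM of Alb; WT untrained replicate 2 is in both sets. The genotype comparisons and the training comparisons share groups, so their values are not independent.

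**Figure D3:**
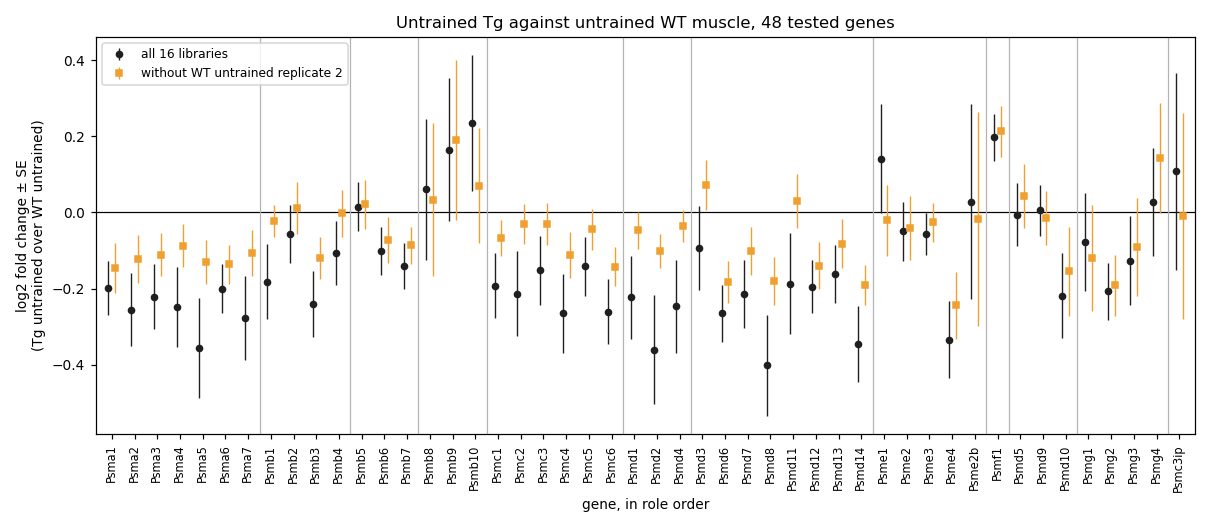
Points are log2 differences, CHCHD4 Tg untrained minus WT untrained, with bars of ± 1 SE, for the 48 tested members by role, with all 16 libraries and without WT untrained replicate 2. Most core and cap subunits lie below 0 in both, closer to 0 without that library, and Psmf1 lies above 0 in both.

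For genotype after training, 35 of 48 members were negative with a median of -0.06, with and without WT untrained replicate 2. At an unadjusted p under 0.05, 2 members were lower (Psmg2 and Psmg4; 4.73% of all genes were), and 7 without WT untrained replicate 2 (14.6%, against 6.48%). All 4 CHCHD4 Tg libraries lay below all 4 WT libraries in 4 members (8.33%), Psmb1, Psmd4, Psmd8 and Psmg4, against 2.76% of all genes. Averaged over training, 39 of 48 members were negative with and without that library, with a median of -0.12 and -0.06. Lower at an unadjusted p under 0.05 were 19 (39.6%, against 8.89% of all genes), and without that library 17 (35.4%, against 9.22%). Markers of other cell types differed in the same averaged comparison. All 6 endothelial markers were higher (median log2 difference 0.23, 6 at an unadjusted p under 0.05; without that library 0.19 and 2), with sums of 98.4 to 137 CPM in WT and 125 to 161 CPM in CHCHD4 Tg without training, and 119 to 144 and 137 to 160.4 CPM after it. All 12 macrophage markers were lower (median -0.71, 9 at an unadjusted p under 0.05; without that library -0.61 and 9). The part of these markers in the member differences was not tested.

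In WT muscle 35 of 48 members were lower after training (median -0.06), but without WT untrained replicate 2 only 19 were, and the median was 0.02. In CHCHD4 Tg muscle 36 of 48 were higher after training, with a median of 0.04. In that comparison all 4 adipocyte markers were lower (median -2.56), 11 of 12 macrophage markers were (median -0.63) and all 4 leukocyte markers were (median -0.67), and their part was not tested. The interaction, the training difference in CHCHD4 Tg minus that in WT, was positive in 38 of 48 members with a median of 0.11, and without that library in 27 with a median of 0.03. Its lowest adjusted p among the members was 0.623 (Psmg4, edgeR).

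The α ring was lower in CHCHD4 Tg without training in all 7 members, with log2 differences from -0.36 (Psma5) to -0.20 (Psma1) and a median of -0.25. Each had an unadjusted p under 0.05, as 3 of 7 did without WT untrained replicate 2, where all 7 stayed negative with a median of -0.12. Psma6, an α subunit at the upper end of the ring's levels, read 35.2, 40.2, 33.9 and 33.1 CPM in WT and 32.6, 30.6, 30.3 and 30.6 CPM in CHCHD4 Tg without training. After training it read 33.1, 33.2, 36.1 and 33.4 CPM in WT and 35.3, 34.7, 31.3 and 33.9 CPM in CHCHD4 Tg. Its CHCHD4 Tg untrained libraries lay below all WT untrained libraries, and 3 of its 4 CHCHD4 Tg trained libraries lay above all CHCHD4 Tg untrained ones. The log2 difference without training was -0.20 (edgeR adjusted p = 0.151), and -0.14 without WT untrained replicate 2. Psma5 read 18.98, 32.2, 19.6 and 19.1 CPM in WT untrained and 17.7, 18.3, 16.9 and 17.5 CPM in CHCHD4 Tg untrained. Its log2 difference of -0.36 (adjusted p = 0.207, edgeR) was -0.13 without the high WT library.

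The structural β subunits, which complete the inner rings, had lower values in CHCHD4 Tg without training in 4 of 4 genes, with a median of -0.14, and in 3 of 4 without WT untrained replicate 2, with a median of -0.01. Psmb3 differed most, by -0.24 (edgeR adjusted p = 0.199) and by -0.12 without that library, with 23.9, 31.3, 21.8 and 23.8 CPM in WT untrained and 20.4, 20.9, 21.5 and 22.6 CPM in CHCHD4 Tg untrained, groups that overlapped.

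The constitutive catalytic subunits overlapped between all groups, except Psmb7 without training. Psmb5, the chymotrypsin-like subunit, stood at 27.0 ± 1.31 CPM in untrained WT, 28.8 ± 1.73 in trained WT, 27.2 ± 1.93 in untrained CHCHD4 Tg and 28.5 ± 1.49 in trained CHCHD4 Tg muscle (mean ± SD, n = 4). Its libraries ran from 25.5 to 28.6, 27.1 to 31.2, 25.4 to 29.6 and 27.2 to 30.6 CPM in that order, so that all groups overlapped. Psmb6, the caspase-like subunit, stood at 51.7 ± 2.64, 50.8 ± 3.73, 48.2 ± 3.05 and 49.1 ± 1.54 CPM in the same order. Psmb7, the trypsin-like subunit, stood at 80.2 ± 5.98, 78.5 ± 3.68, 72.7 ± 3.34 and 75.6 ± 2.44 CPM. Its untrained libraries read 76.8, 89.0, 78.7 and 76.2 CPM in WT and 75.7, 72.8, 68.0 and 74.4 CPM in CHCHD4 Tg, which did not overlap. The log2 difference of Psmb7 without training was -0.14 (edgeR adjusted p = 0.275) and -0.09 without WT untrained replicate 2, that of Psmb6 -0.10 and that of Psmb5 0.02. Psmb5 had the smallest training p of the 3, with a training difference averaged over genotype of 0.08 (edgeR adjusted p = 0.441).

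The immunosubunits were present at a small fraction of the subunits they replace. Per kilobase, Psmb5 exceeded Psmb8 44.5-fold, Psmb6 exceeded Psmb9 121-fold and Psmb7 exceeded Psmb10 10.8-fold. By the longest transcript the first ratio was 25.1 and the second 185. Psmb8 read 3.26, 2.28, 2.05 and 2.03 CPM in WT and 2.67, 2.44, 2.00 and 2.95 CPM in CHCHD4 Tg without training, and 3.11, 2.08, 2.28 and 1.71 CPM in WT and 2.41, 2.14, 2.36 and 1.92 CPM in CHCHD4 Tg after it. Every pair of groups overlapped for Psmb8, whose group means ran from 2.21 to 2.51 CPM. Psmb9 lay between 0.589 and 1.065 CPM in the 16 libraries, with group means ± SD of 0.759 ± 0.114, 0.795 ± 0.171, 0.857 ± 0.173 and 0.822 ± 0.113 CPM in the order used for Psmb5 (n = 4). Psmb10 read 3.76, 2.10, 3.21 and 3.83 CPM in WT and 3.97, 3.09, 3.85 and 4.21 CPM in CHCHD4 Tg without training. After training it read 4.30, 2.895, 2.86 and 2.93 CPM in WT and 3.16, 4.18, 4.07 and 4.02 CPM in CHCHD4 Tg. Both pairs of genotype groups overlapped for Psmb10. Its log2 difference averaged over training was 0.24 (SE 0.127, edgeR adjusted p = 0.350), and 0.16 without WT untrained replicate 2. Without training it was 0.23 (adjusted p = 0.562, edgeR) and 0.07 without that library.

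**Figure D4:**
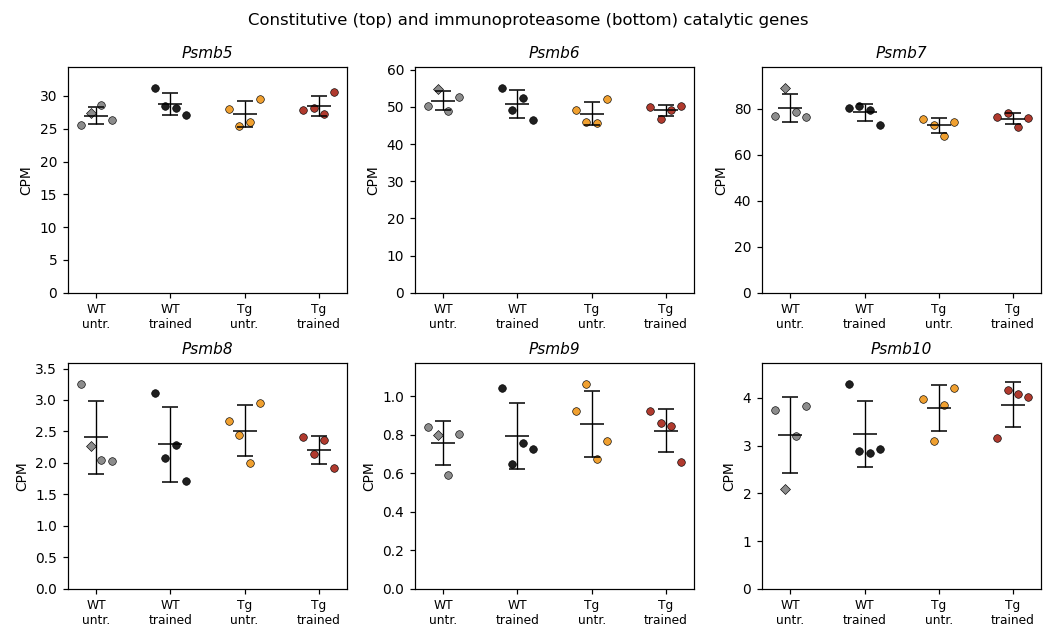
CPM of each library (points; the diamond is WT untrained replicate 2) with the group mean ± SD, n = 4, for Psmb5, Psmb6 and Psmb7 in the upper panels and Psmb8, Psmb9 and Psmb10 in the lower. The 4 groups overlap for each gene except Psmb7, whose CHCHD4 Tg untrained libraries all lie below the WT untrained ones.

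The contrast of the immunosubunits with the subunits they replace was summarised as the mean log2(CPM + 0.5) of Psmb8, Psmb9 and Psmb10 minus that of Psmb5, Psmb6 and Psmb7. Without training it was -4.37 ± 0.23 in WT and -4.16 ± 0.05 in CHCHD4 Tg, and after training -4.38 ± 0.17 in WT and -4.26 ± 0.11 in CHCHD4 Tg (mean ± SD, n = 4). The libraries ran from -4.61 to -4.07 and -4.23 to -4.13 without training and from -4.51 to -4.13 and -4.41 to -4.16 after it, so all groups overlapped. The difference between CHCHD4 Tg and WT was 0.21 without training (0.12 without WT untrained replicate 2), 0.12 after training and 0.16 averaged (0.12 without that library). The first lay between the SDs of the untrained groups, 0.23 in WT and 0.05 in CHCHD4 Tg, and the second between those of the trained groups, 0.17 and 0.11. Training moved the value by -0.01 in WT and by -0.10 in CHCHD4 Tg, and the interaction was -0.09. Leaving out each library in turn gave -0.10 to 0.09, -0.14 to -0.05 and -0.19 to 0.00 for these, so the sign of the WT value depended on single libraries. As a share of the catalytic transcripts per kilobase, the immunosubunits made up 3.37% ± 0.76 in WT and 3.96% ± 0.20 in CHCHD4 Tg without training, and 3.28% ± 0.54 and 3.78% ± 0.33 after it (SD, n = 4). The lowest share, 2.42%, was in WT untrained replicate 2. Macrophage markers, all 12 of which were tested, summed to 55.8 to 94.1 CPM in WT and 35.5 to 66.6 CPM in CHCHD4 Tg without training, and to 33.7 to 110.1 and 31.1 to 43.6 CPM after it. The 4 pan-leukocyte markers summed to 6.61 to 9.31 and 4.74 to 9.11 CPM without training and to 5.28 to 13.3 and 3.91 to 5.75 CPM after it, and 1 of 11 lymphocyte markers passed the filter on low counts, all 11 summing to 0.330 to 1.11 CPM. None of these markers was at 0 in all libraries, and their part in the immunosubunit levels was not tested. Psmb9 shares 212 exon bases with Tap1 on the other strand, and Tap1 counts were 259% of those of Psmb9, and the sources used here do not say whether the counting used strand.

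The 6 ATPases of the base were all lower in CHCHD4 Tg without training, with log2 differences from -0.26 (Psmc4) to -0.14 (Psmc5) and a median of -0.20. Leaving out WT untrained replicate 2 made these -0.11, -0.04 and -0.06. Psmc6 had the smallest p (difference -0.26, edgeR adjusted p = 0.159, and -0.14 without that library), with 49.96, 63.5, 47.5 and 44.7 CPM in WT untrained and 43.9, 44.7, 40.2 and 43.0 CPM in CHCHD4 Tg untrained. The base non-ATPases, which form the scaffold of the base and hold a ubiquitin receptor, differed by -0.36 (Psmd2), -0.25 (Psmd4) and -0.22 (Psmd1). With that library left out, Psmd4 differed by -0.035 and Psmd1 by -0.05. Psmd2 read 126, 223, 128 and 120.1 CPM in WT untrained and 117, 112, 119 and 117 CPM in CHCHD4 Tg untrained. The groups of Psmd2 did not overlap, but its difference was -0.10 without WT untrained replicate 2 (adjusted p = 0.296, edgeR).

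The lid held the member with the smallest genotype p both without training and averaged over training, Psmd6. All 8 lid members were lower in CHCHD4 Tg without training, with a median of -0.21, and all 8 after training, with a median of -0.08. Without WT untrained replicate 2, 6 of 8 were lower without training, with a median of -0.12.

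Psmd8, a lid subunit also known as Rpn12 (ENSMUSG00000030591.17, chromosome 7, 29174188 to 29180701, minus strand, build GRCm38), read 72.1, 123, 76.3 and 73.7 CPM in WT and 66.6, 66.2, 62.8 and 65.9 CPM in CHCHD4 Tg without training. After training it read 86.5, 101, 87.9 and 80.8 CPM in WT and 73.8, 75.5, 70.7 and 79.9 CPM in CHCHD4 Tg. The 4 CHCHD4 Tg untrained libraries lay below the other 12, as they did for 0.389% of all genes, and the CHCHD4 Tg trained libraries lay above them and below all WT trained ones. The CHCHD4 Tg to WT difference was -0.40 without training (SE 0.133, edgeR adjusted p = 0.164), but -0.18 without WT untrained replicate 2. After training it was -0.25 (edgeR adjusted p = 0.687). Averaged over training it was -0.32 (SE 0.0942, edgeR adjusted p = 0.0971). Without WT untrained replicate 2, where 2.01% of all genes passed, the averaged difference was -0.21 (SE 0.0428) and passed the test with an adjusted p of 0.0206 in edgeR. The training difference averaged over genotype was 0.12 (adjusted p = 0.589, edgeR) with all libraries. Without that library it was 0.23 (SE 0.0429, adjusted p = 0.0199 in edgeR), where 1.25% of all genes passed. In each genotype the training difference was then 0.26 in WT (edgeR adjusted p = 0.162) and 0.19 in CHCHD4 Tg (edgeR adjusted p = 0.125), and all 4 trained CHCHD4 Tg libraries lay above the untrained ones (4.65% of all genes did).

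Psmd6, the lid subunit Rpn7 (chromosome 14, 14112174 to 14120984, minus strand), read 53.4, 64.4, 51.2 and 51.5 CPM in WT untrained and 48.5, 45.9, 43.9 and 45.2 CPM in CHCHD4 Tg untrained, with no overlap. After training it read 55.2, 55.7, 52.6 and 48.8 CPM in WT and 50, 51.6, 45.4 and 48.3 CPM in CHCHD4 Tg, which overlapped. Its difference was -0.27 without training (SE 0.0742, edgeR adjusted p = 0.107) and -0.19 averaged (SE 0.0525, edgeR adjusted p = 0.0792). Without WT untrained replicate 2 these were -0.18 (adjusted p = 0.126) and -0.15 (adjusted p = 0.0509) in edgeR. Psmd14, the deubiquitinase of the lid (chromosome 2, 61711694 to 61800376, plus strand), read 24.8, 34.5, 24.2 and 22.4 CPM in WT untrained and 21.6, 20.9, 21.0 and 20.1 CPM in CHCHD4 Tg untrained. These groups did not overlap, while the trained groups, 22.3, 24.3, 22.1 and 21.6 CPM in WT and 23.3, 21.7, 21.4 and 22.2 CPM in CHCHD4 Tg, did. Its difference without training was -0.35 (SE 0.0996, edgeR adjusted p = 0.116), and -0.19 without WT untrained replicate 2 (edgeR adjusted p = 0.102). The interaction of Psmd14 was 0.32 (edgeR adjusted p = 0.80), and 0.16 without that library.

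**Figure D5:**
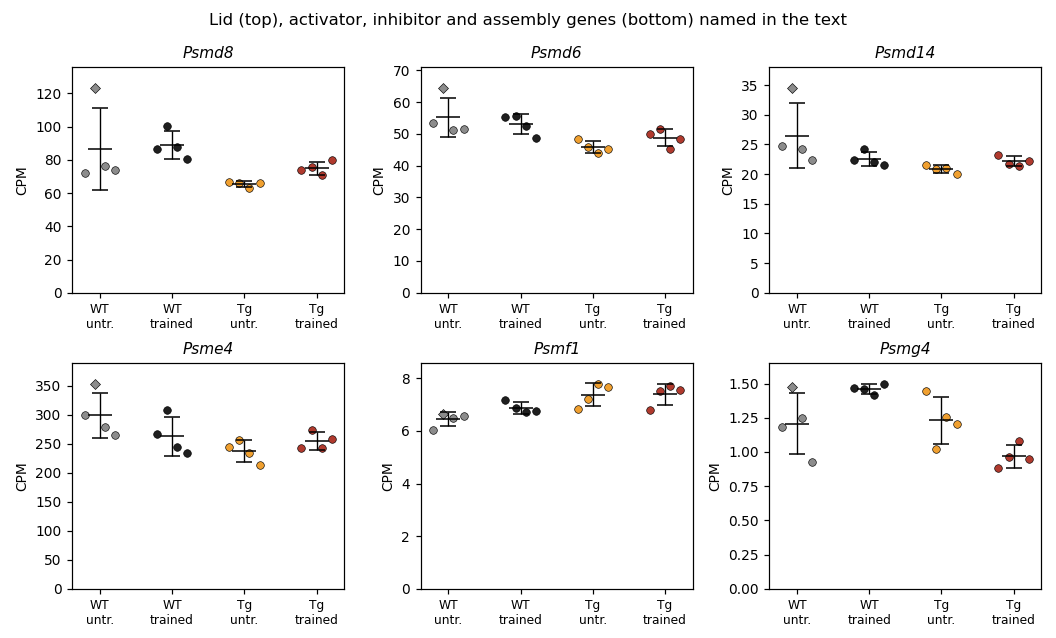
CPM of each library (points; the diamond is WT untrained replicate 2) with the group mean ± SD, n = 4, for the lid subunits Psmd8, Psmd6 and Psmd14, the activator Psme4, the inhibitor Psmf1 and the chaperone Psmg4. The CHCHD4 Tg untrained libraries of Psmd8 lie below the other 12, and the WT untrained libraries of Psmf1 do so for that gene.

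Among the activators, Psme4 (PA200, chromosome 11, 30771726 to 30880361, plus strand) read 299.6, 353, 279 and 264.5 CPM in WT untrained and 245, 257, 234 and 213 CPM in CHCHD4 Tg untrained, with no overlap. The trained groups read 267, 308.5, 243.5 and 233 CPM in WT and 242, 274, 243 and 257 CPM in CHCHD4 Tg, and overlapped. Its difference without training was -0.33 (SE 0.101, edgeR adjusted p = 0.133), and -0.24 without WT untrained replicate 2 (edgeR adjusted p = 0.191). Of the PA28 subunits, Psme1 differed by 0.14, Psme2 by -0.05 and Psme3 by -0.06 without training. With WT untrained replicate 2 left out, Psme1 turned to -0.02 and Psme3 differed by -0.03, and all 5 activator genes were negative. Psme3, the nuclear PA28γ, had the smallest training p of all members averaged over genotype, with a difference of 0.08 (edgeR adjusted p = 0.381) and group means ± SD of 20.4 ± 0.98, 21.0 ± 0.56, 19.6 ± 1.20 and 21.2 ± 0.76 CPM (n = 4).

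Psmf1, the inhibitor PI31 (chromosome 2, 151715812 to 151744186, minus strand), had a positive genotype difference. It read 6.05, 6.65, 6.48 and 6.57 CPM in WT and 6.82, 7.23, 7.79 and 7.68 CPM in CHCHD4 Tg without training. After training it read 7.18, 6.86, 6.71 and 6.74 CPM in WT and 6.81, 7.53, 7.69 and 7.55 CPM in CHCHD4 Tg. Its 4 WT untrained libraries lay below the other 12, as 0.549% of all genes did, and WT untrained replicate 2 was not apart from them. With training in WT all 4 libraries lay above the untrained ones, as 2.36% of all genes did. The CHCHD4 Tg to WT difference was 0.20 without training (SE 0.0626, edgeR adjusted p = 0.149) and 0.15 averaged (edgeR adjusted p = 0.0991), and 0.21 and 0.16 without that library (edgeR adjusted p = 0.142 and 0.0781).

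Among the assembly chaperones, Psmg4 (PAC4, a chaperone of the α ring; chromosome 13, 34162964 to 34178173, plus strand), at 41 to 83 counts per library, read 1.18, 1.48, 1.25 and 0.927 CPM in WT and 1.44, 1.02, 1.25 and 1.21 CPM in CHCHD4 Tg without training. After training it read 1.47, 1.46, 1.41 and 1.498 CPM in WT and 0.880, 0.965, 1.08 and 0.951 CPM in CHCHD4 Tg. All CHCHD4 Tg trained libraries lay below all WT trained libraries. The difference after training was -0.59 (SE 0.144, edgeR adjusted p = 0.287), the largest in size of the members, and -0.59 (adjusted p = 0.127, edgeR) without WT untrained replicate 2. Training differed by 0.27 in WT and by -0.34 in CHCHD4 Tg, an interaction of -0.62 (SE 0.202, edgeR adjusted p = 0.623). Psmg2 (PAC2) differed by -0.19 averaged over training (edgeR adjusted p = 0.0890) and by -0.18 without that library (adjusted p = 0.0992, edgeR). The base chaperones Psmd5, Psmd9 and Psmd10 differed by -0.01, 0.01 and -0.22 without training, and by 0.04, -0.01 and -0.15 without that library.

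Of 25 tested partner genes (the transcription factors, assembly factor, deubiquitinases, shuttle receptors and ubiquitin genes that work with the proteasome), none passed edgeR's test in any comparison, and at an unadjusted p under 0.05 at most 11 were lower (7.98% of all genes) and 1 higher (8.17%) in one comparison, genotype without training. These were 4 (7.66%) and 1 without WT untrained replicate 2. Whatever their p, 21 of 25 were lower in CHCHD4 Tg there, with a median of -0.15, and 20 without WT untrained replicate 2, with a median of -0.07. Pomp, the maturation factor of the 20S core, read 23.5, 32.2, 23.9 and 24.0 CPM in WT untrained and 21.0, 20.9, 22.2 and 21.6 CPM in CHCHD4 Tg untrained, which did not overlap (difference -0.27, edgeR adjusted p = 0.125, and -0.15 without that library). Averaged over training, the ubiquitin fusion gene Rps27a differed by -0.15 (edgeR adjusted p = 0.0853) and the shuttle receptor Rad23b by -0.23 (edgeR adjusted p = 0.157, and -0.14 without that library). For training averaged over genotype, the smallest p-values were those of Ddi2, the protease that activates NRF1 (-0.18, edgeR adjusted p = 0.119), and of Nfe2l2, which encodes NRF2 (-0.34, edgeR adjusted p = 0.137).

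Of 14 antigen presentation genes, none passed edgeR's test, at most 5 were lower at an unadjusted p under 0.05 in one comparison (training in CHCHD4 Tg; 6.81% of all genes), and 10 or 11 were negative in each of the 7 comparisons (9 to 12 without WT untrained replicate 2). Training in CHCHD4 Tg gave the smallest p-values for Nlrc5, the class I transactivator, and H2-D1. Nlrc5 read 3.15, 2.03, 1.82 and 2.85 CPM in CHCHD4 Tg untrained and 1.40, 1.77, 1.63 and 1.63 CPM in CHCHD4 Tg trained, which did not overlap (difference -0.61, edgeR adjusted p = 0.282). H2-D1, a class I heavy chain, differed by -0.32 (edgeR adjusted p = 0.330). Macrophage markers were lower in 11 of 12 genes in the same comparison (4 at an unadjusted p under 0.05) and leukocyte markers in 4 of 4 (2 so), and their part in the antigen presentation values was not tested. Averaged over genotype, training gave -0.28 for B2m, the class I light chain (edgeR adjusted p = 0.151). For genotype averaged over training, Calr, the chaperone calreticulin, differed by -0.13 (edgeR adjusted p = 0.0853).

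Several members have sequence in common with other genes, so reads may be shared, which was not measured. A transcript of another gene at least 95% identical over at least 200 bases was found for 16 members. For 12 of them the count of such a gene was 1% or more of the member's. Some of these are no copies but exons overlapping on the other strand, as for Psmd13 with Sirt3 and Psmb7 with Nek6. Counts of 31 members were whole in all libraries. Psme2 and Psme2b were 99.4% identical over 794 bases, so their split is uncertain. Exons of 10 members overlapped those of other genes, Psmd13 with Sirt3 and Psmc3 with Slc39a13 among them.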

How the data were processed

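RNA extracted with RNeasy (Qiagen) was made into libraries with a SMARTer mRNA-seq kit, per the labels' protocols, and processed with STAR 2.7.8a and RSEM 1.3.2 against mm10, per the submitters' processing notes. The authors deposited expected counts per gene, of which 12.5% were not whole, so they were rounded. They are unnormalised, and RSEM divides reads shared by similar genes. No annotation release or strand setting is given in the sources used here. Low genes were filtered with filterByExpr by group (17490 of 55487 rows kept), libraries were scaled by TMM, and 1 edgeR 4.0.16 quasi-likelihood model (R 4.3.3) with a mean per group over all 16 libraries gave 7 contrasts. P-values were Benjamini-Hochberg adjusted over all tested genes, with 0.05 as threshold. Alternatives were limma 3.58.1 (voom), DESeq2 1.42.0, other scalings and filters, a replicate block and libraries left out. Lengths and coordinates are those of GRCm38 annotation, matched by gene identifier. Replicate pairs differed beyond sampling noise (chi-square per degree of freedom 7.08 to 45.4, and 125.6 to 142.6 with WT untrained replicate 2), so all 16 libraries were counted. Total counts of 40888272 to 61703679 leave counting error small for all but the lowest members. The edgeR model was run on simulated data for training in WT only, with no library set apart as in these data. The other contrasts and the alternatives were not run on simulated data. The members, lists and tests were chosen with earlier results of these data known. Named were Psmb5 to Psmb10, per role and contrast the 2 members with the smallest p, the highest and lowest levels per length of the 20S and 19S, untested members, Psmc3ip, Chchd4, and the same 2 per contrast for partner and antigen presentation genes. The result of 1 partner gene is not reported here. Others, such as those named for WT untrained replicate 2 or for groups that did not overlap, were named after their values were seen.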

Additional observations from a re-analysis of the deposited data

Results flagged for a closer look

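Each tested member was examined in each of the 4 groups for a library far from the other 3, by the gap to its nearest neighbour over the group's range, against Dixon's critical value. Of 192 sets 28 were past it, while chance gives about 1 in 20. WT untrained replicate 2 was the far library in 13, always as the highest. In the 20S core these were Psma4 at 53.6 CPM, Psma5 at 32.2, Psma7 at 45.9 and Psmb1 at 60.4 CPM. In the 19S base they were Psmc3 at 94.1 CPM, Psmc4 at 47.7, Psmd1 at 112.7, Psmd2 at 223 and Psmd4 at 85.5 CPM. In the lid they were Psmd3 at 42.5 CPM, Psmd6 at 64.4, Psmd8 at 123.3 and Psmd11 at 46.8 CPM.

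The other 15 sets were spread over the 4 groups. In WT untrained, Psmb9 was low in replicate 3 (0.589 CPM) and Psme2b high in replicate 4 (0.886 CPM). In WT trained, Psmb10 was high in replicate 1 (4.30 CPM), Psmc6 high in replicate 2 (46.6 CPM), Psma6 high in replicate 3 (36.1 CPM) and Psmc2 low in replicate 4 (35.6 CPM). In CHCHD4 Tg untrained, replicate 1 was high for Psma6 (32.6 CPM) and Psmc2 (40.3 CPM) and low for Psmc3ip (0.542 CPM). In the same group Psmd12 was low in replicate 3 (34.1 CPM) and Psme3 high in replicate 4 (21.4 CPM). In CHCHD4 Tg trained, Psmb10 was low in replicate 1 (3.16 CPM), and replicate 3 was low for Psmd2 (115.3 CPM) and Psmd4 (47.7 CPM) and high for Psmg3 (2.10 CPM).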

How the results depend on the processing

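Of 1797 values recomputed under the alternatives, 1776 kept their direction and side of the threshold or moved by less than the spread. Of the rest, 13 moved and 8 newly passed the threshold. A reversed sign was counted only for single-gene differences, of which 0 reversed. Member medians and immunosubunit contrasts could change sign within the spread, as both did for training in WT. No member passed the threshold in the main fit, so none could lose it. For genotype without training DESeq2 called 1 member (Psmd6), with 442 of all genes called against 130, and the member median was -0.031 without the 4 libraries above 10 CPM of Myh7. For training averaged over genotype 1 member (Psmd8) was called without the 3 libraries above 10 CPM of Alb and 1 without WT untrained replicate 2. For genotype averaged over training DESeq2 called 2 members and 644 genes against 196, the fit without the Alb libraries called 2 (Psmd6, adjusted p = 0.0466, and Psmd8, adjusted p = 0.0219), and the fit without WT untrained replicate 2 called 1. The cause was not tested. Leaving out each library in turn gave members called of 0 to 1 in those averaged comparisons and 0 to 0 in the other 5. It gave member medians of -0.10 to 0.02 for training in WT, 0.01 to 0.06 for training in CHCHD4 Tg, -0.21 to -0.07 for genotype without training, -0.09 to -0.04 for genotype after training, 0.03 to 0.15 for the interaction, -0.03 to 0.03 for training averaged and -0.14 to -0.06 for genotype averaged. Differences in the immunosubunit contrast ran from 0.12 to 0.30 for genotype without training, 0.08 to 0.20 after training and 0.12 to 0.21 averaged, and from -0.10 to 0.09 for training in WT, -0.14 to -0.05 in CHCHD4 Tg, -0.10 to -0.01 averaged and -0.19 to 0.00 for the interaction. Lengths from the longest transcript moved 6 of 7 named levels, most for Psmb6 (51.7 against 26.7 CPM per kilobase). The labels state no pairing by replicate number. Same-numbered deviations correlated between -0.21 and 0.21, 9 of 24 pairs above 0.1. The median was -0.003, against 0.0011 for different numbers, and 7 libraries correlated best with their own number. Such correlations cannot decide whether the numbers pair libraries. With a replicate block 0 members were called in each comparison, with a median of -0.17 for genotype without training and -0.11 averaged. Depth limits most the tested members with the lowest counts, Psmc3ip, Psme2b, Psmb9, Psmg4, Psmg3 and Psmb8.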
